A study of Mus musculus with 6 samples.

Results

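Numbered zinc finger genes carry a mouse symbol made of Zfp and a number, and most encode proteins built from C2H2 zinc fingers. The members described here are the numbered Zfp genes with a mean level of at least 5 CPM (the usual depth-scaled unit, the estimated count divided by the library total) over the 6 libraries. Of 376 numbered Zfp genes in the count matrix of 55401 genes, 245 met this bound and 131 did not. All 245 also passed the filter on low counts that left 17310 genes for testing. The members were thus chosen by their mean level over both groups, so their presence in the cells is not a finding. Just above the bound were *Zfp956* at 5.12 CPM, *Zfp658* at 5.12 CPM and *Zfp85* at 5.13 CPM. Just below it were *Zfp93* at 4.96 CPM, *Zfp964* at 4.88 CPM and *Zfp97* at 4.86 CPM.

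The cells were C2C12 cells, a line of mouse myoblasts able to form myotubes in low serum, and poly(A) RNA was sequenced 2 d post differentiation in DMEM with 2% horse serum. Control cells, titled wild type, were mock cells that had received the ZsGreen plasmid without a specific guide RNA. *Phf2* KO cells had received a pool of plasmids with guide RNAs against *Phf2*, which encodes a demethylase of the repressive histone mark H3K9me2. In both groups transfected cells were collected by sorting as a population and not as clones, and each group was 3 wells of the same experiment, so the p-values measure the spread between wells.

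A C2H2 finger is a short fold held by a zinc ion between a pair of cysteines and a pair of histidines. Arrays of such fingers can bind particular DNA sequences. Many mammalian arrays are joined to a KRAB box, which binds the corepressor KAP1 (*Trim28*). KAP1 brings the H3K9 methyltransferase SETDB1, heterochromatin protein 1 and histone deacetylases to the bound site, often a transposable element. KRAB zinc finger genes multiplied by local duplication and lie in clusters of related genes. Other numbered Zfp proteins have no KRAB box and act as developmental transcription factors or on RNA and ribosomes.

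A coding sequence was found for 243 of the 245 members in GENCODE. The exceptions were *Zfp469*, annotated there as non-coding, and *Zfp267*, which was not matched. A KRAB box was found in 119 members (49.0%) and not in 124. The search can miss a box, since *Zfp263* and *Zfp708*, listed below as KRAB genes with known targets, scored too low for it. Members given as without a KRAB box may thus include KRAB genes, and every comparison by KRAB box rests on this search. The median number of fingers was 12 in members with a KRAB box and 8 in those without it, with a range of 0 to 36 over all members. The longest arrays were those of *Zfp142* with 36 fingers, *Zfp462* with 33 and *Zfp236* with 30. No finger of the searched pattern was found in *Zfp36*, *Zfp330*, *Zfp365*, *Zfp503*, *Zfp703*, *Zfp781* and *Zfp839*. *Zfp36* encodes an RNA-binding protein whose fingers are of the CCCH kind. The conserved linker between fingers followed 53.2% of fingers in members with a KRAB box and 29.7% in those without it.

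A finger from within the array is shown for 6 members that passed the test, to let their arrays be compared. Each is coding sequence of GRCm38 on the gene's own strand, 5′ to 3′, with the codons of the zinc-binding cysteines and histidines in capitals. The 5 codons after the last histidine stand at the end, and they may be only part of the stretch before the next finger. The fingers of *Zfp68*, *Zfp945* and *Zfp799* come from KRAB genes, that of *Zfp62* from a long array without a KRAB box, that of *Zfp462* from a longer array with no conserved linker, and that of *Zfp346* from a double-stranded RNA-binding protein. The histidine codons of *Zfp346* are 5 codons apart, and its first capitalised cysteine codon is followed by another cysteine codon, so either could begin the pair.
Zfp68 finger 5 of 9, chr5:138606692-138606769, minus strand: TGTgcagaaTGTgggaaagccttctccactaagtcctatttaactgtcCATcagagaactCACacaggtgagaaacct
Zfp945 finger 10 of 18, chr17:22851373-22851450, minus strand: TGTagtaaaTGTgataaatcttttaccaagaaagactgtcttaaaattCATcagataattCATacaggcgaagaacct
Zfp799 finger 8 of 16, chr17:32820043-32820120, minus strand: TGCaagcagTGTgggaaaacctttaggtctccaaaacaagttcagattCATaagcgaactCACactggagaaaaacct
Zfp62 finger 10 of 25, chr11:49216215-49216292, plus strand: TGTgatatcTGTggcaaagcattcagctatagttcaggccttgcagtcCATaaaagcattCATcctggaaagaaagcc
Zfp462 finger 20 of 33, chr4:55012986-55013066, plus strand: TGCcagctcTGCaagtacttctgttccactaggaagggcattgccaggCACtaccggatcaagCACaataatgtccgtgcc
Zfp346 finger 2 of 4, chr13:55115510-55115596, plus strand: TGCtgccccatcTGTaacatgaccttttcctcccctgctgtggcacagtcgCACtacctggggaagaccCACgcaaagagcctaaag

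Levels between genes were compared as TPM, in which each transcript is scaled by its length and its library. The median member stood at 9.80 TPM over the 6 libraries. Members with a KRAB box had a median of 7.71 TPM (quartiles 5.32 and 11.1), and those without it had a median of 14.8 TPM (quartiles 8.22 and 25.3). The 5 members with the highest levels had no KRAB box. They were *Zfp207*, which encodes a mitotic spindle protein, at 116 ± 18.1 TPM (SD, n = 6), and *Zfp106*, which encodes an RNA-binding protein needed by motor neurons and muscle, at 112 ± 7.42 TPM. Below these stood *Zfp622*, a factor of large ribosomal subunit maturation, at 83.9 ± 2.499 TPM, *Zfp503* at 82.7 ± 7.46 TPM and *Zfp637* at 69.1 ± 9.38 TPM. The differences between *Zfp207* and *Zfp106*, and between *Zfp622* and *Zfp503*, were smaller than their spread. The KRAB member with the highest level was *Zfp445*, an imprint regulator, at 40.5 TPM. Of the 131 genes below the bound, 122 had a coding sequence and 84 of these (68.9%) a KRAB box.

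**Figure D1:**
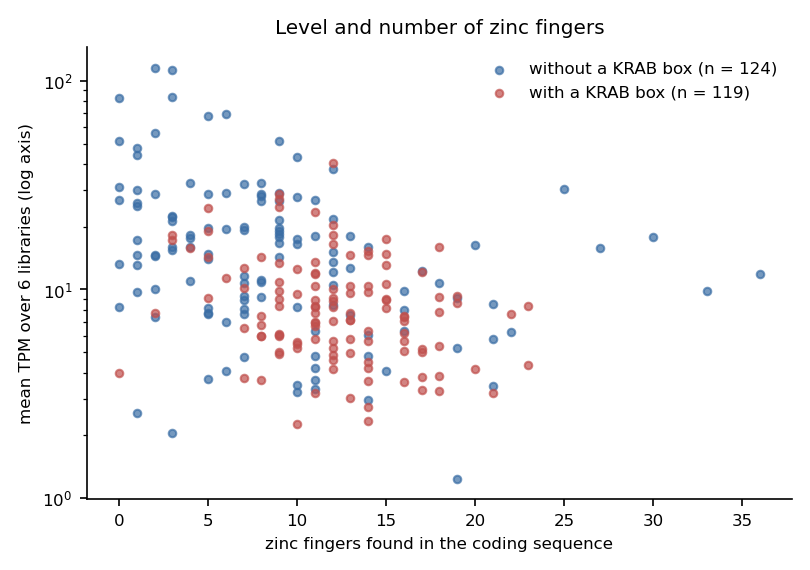
Mean TPM over 6 libraries (log axis) against the number of C2H2 fingers found in the coding sequence, for 119 members with a KRAB box and 124 without it. The members with the highest levels, up to 116 TPM, have at most 6 fingers and no KRAB box, and KRAB members lie at a median of 7.71 TPM.

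Estimated counts summed to between 52526109 and 67502788 per library. *Phf2* RNA stood at 102, 95.5 and 105 CPM in the control libraries and at 41.1, 37.6 and 38.6 CPM in the KO libraries, so every library matched its label. Muscle markers were measured at high levels in both groups, and 5 of 10 (*Des*, *Myog*, *Mymk*, *Ckm* and *Myh3*) fell in KO (50%, background 3.26%). Of the 10, 9 had a fitted change below 0, and in 8 every KO library lay below every control library (80%, background 12.2%). The summed level of the 10 ran from 7944 to 9343 CPM in control and from 6433 to 7147 CPM in KO. None of 10 proliferation markers passed the test (edgeR quasi-likelihood, adjusted p under 0.05). Of 10 markers of other cell types, *Epcam* was at 0, 3 were tested and *Tubb3* fell, with a summed level of 8.09 to 11.6 CPM in control and 6.29 to 7.43 CPM in KO. The part of the muscle markers in the results on the members was not tested. In such bulk samples, fewer cells with a transcript and less of it per cell cannot be told apart.

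The comparison of *Phf2* KO with control asked which members changed when *Phf2* was knocked out. Few single members changed, and most of the others stood slightly higher in KO. In the quasi-likelihood test of edgeR, with p adjusted by Benjamini-Hochberg over all 17310 genes, 11 of 245 members passed an adjusted p of 0.05, which is 4.49% of the members, and the background over all genes was 6.48%. Of these, 10 rose (4.08%, background 3.22%) and 1 fell (0.408%, background 3.26%). Among all genes, 557 rose and 565 fell, and a correction for GC content chosen after seeing the data turned this split into 725 and 457, and that of the members into 12 and 1. In 57 members (23.3%) every KO library lay above every control library, with a background of 12.9%, and in 13 (5.31%) every KO library lay below, with a background of 12.2%. Among the 10923 tested genes of at least 5 CPM the corresponding shares were 16.8% and 14.1%. Of those genes 9.39% passed the test, 4.84% as higher and 4.55% as lower, so the members' share of rises was below that of genes at this level.

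The fitted change was above 0 in 173 of 245 members (70.6%), against 51.9% of all genes of at least 5 CPM. The median log2 fold change of the members was 0.08, with quartiles of -0.02 and 0.16 and a range of -0.43 to 0.46. The median over all genes of at least 5 CPM was 0.006. The median standard error of a single member was 0.10. The library values showed the same order. The median member stood at -0.02, -0.004 and 0.02 relative to the control mean in the 3 control libraries, and at 0.05, 0.07 and 0.11 on the log2 scale in the 3 KO libraries. The summed level of all members was 6868, 6916 and 6972 CPM in control and 7088, 7169 and 7321 CPM in KO, so the groups did not overlap. No test was applied to these medians or sums.

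**Figure D2:**
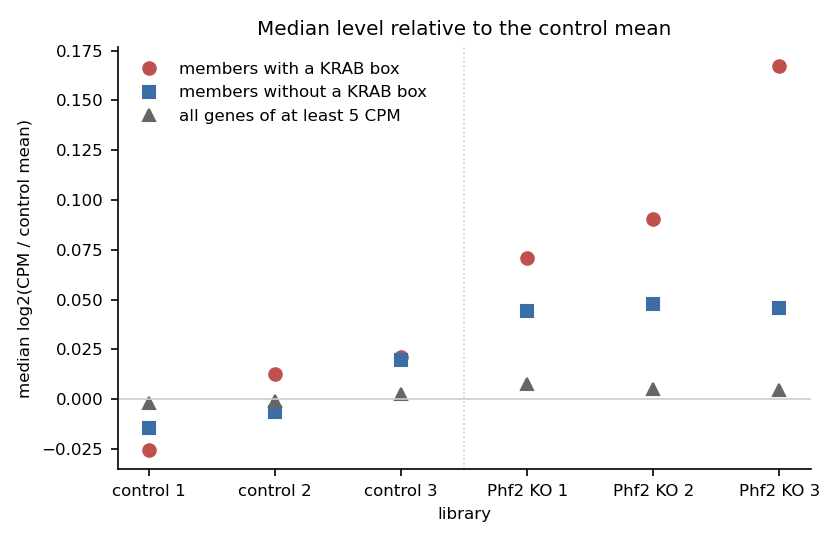
Median log2 difference from the control mean in each of the 6 libraries, for members with a KRAB box, members without it and all genes of at least 5 CPM. The KRAB members run from -0.03 to 0.02 in the control libraries and from 0.07 to 0.17 in the KO libraries, and all genes stay close to 0 in each library.

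Of the members that rose, 3 belong to the 22 numbered Zfp genes listed as developmental or general transcription factors, none of which fell. That is 13.6% of the list, against 3.22% of all genes tested and 4.84% of those of at least 5 CPM. The list was chosen with earlier results of these data known, so this share is not a test. *Zfp462* (ENSMUSG00000060206.11, chr4:54945048-55083563, mm10) encodes a large chromatin protein of neural development. Its level was 53.3, 52.5 and 55.2 CPM in control and 66.3, 62.6 and 68.8 CPM in KO. The groups were well apart, with a log2 fold change of 0.30 ± 0.054 (SE, edgeR adjusted p = 0.0044). *Zfp462* alone among the members passed the test when each of the 6 libraries was left out in turn (adjusted p from 0.0065 to 0.0395), but not in either limma fit of log2 TPM, where its log2 fold change was 0.09 and 0.10 (adjusted p = 0.695 and 0.702).

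*Zfp503* (ENSMUSG00000039081.10, chr14:21983959-21989601), also known as Nolz1, encodes a corepressor of the NET family that acts in the developing striatum. Control libraries held 156, 141 and 152 CPM and KO libraries 171, 178 and 167 CPM, without overlap, and the log2 fold change was 0.20 ± 0.049 (SE, edgeR adjusted p = 0.0243). Its relative *Zfp703* had a log2 fold change of 0.22 and did not pass (adjusted p = 0.0779). *Zfp362* (ENSMUSG00000028799.15, chr4:128773088-128806045) encodes a relative of the transcription factor Zfp384. It stood at 35.5, 36.2 and 31.8 CPM in control and 42.2, 41.8 and 39.997 CPM in KO, where each library lay above the control group (log2 fold change 0.26 ± 0.066, SE, edgeR adjusted p = 0.0302). *Zfp384* itself had a log2 fold change of -0.08 (adjusted p = 0.537). *Zfp503* passed only without control replicate 1 (adjusted p up to 0.140 in the other leave-one-out fits), and *Zfp362* in none of them (0.0575 to 0.110).

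The remaining listed transcription factors stayed under the threshold. *Zfp516*, a factor of brown fat, had a log2 fold change of 0.13 (edgeR adjusted p = 0.0948) and *Zfp148*, which binds GC-rich promoters, 0.12 (0.160), and their groups did not overlap. *Zfp281*, a regulator of pluripotency and the closest relative of *Zfp148*, had 0.01 (0.937). *Zfp143*, an activator of small nuclear RNA promoters, had -0.11 (0.681), *Zfp422* -0.05 (0.873), *Zfp609* -0.03 (0.804) and *Zfp91*, a ubiquitin ligase, 0.01 (0.975). *Zfp91* also stands on a separate row of the matrix, which is not a member. That row had a mean of 0.746 CPM but 55.1 TPM, so its counts and TPM disagree. Listed genes too low to be members were *Zfp423*, *Zfp467*, *Zfp521* and *Zfp536*, with means between 0.264 and 3.01 CPM.

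Members with a KRAB box gave 3 rises in 119 genes (2.52%, background 3.22%) and no fall (background 3.26%). Among all genes of at least 5 CPM, 4.84% rose and 4.55% fell, so the share of rises was not above either background. *Zfp68* (ENSMUSG00000058291.14, chr5:138603652-138619761) had 40.5, 39.6 and 41.6 CPM in control and 47.7, 49.0 and 45.6 CPM in KO. Its log2 fold change was 0.22 ± 0.057 (SE, edgeR adjusted p = 0.0314). *Zfp945* (ENSMUSG00000059142.16, chr17:22846697-22867134) had 25.5, 23.1 and 25.4 CPM in control and 29.9, 27.8 and 32.6 CPM in KO (log2 fold change 0.29 ± 0.079, adjusted p = 0.0458). In both genes the lowest KO library lay above the highest control library. *Zfp799* (ENSMUSG00000095253.4, chr17:32815449-32830261) had 16.9, 16.8 and 17.7 CPM in control and 21.3, 19.9 and 22.7 CPM in KO (log2 fold change 0.31 ± 0.083, adjusted p = 0.0372), again without overlap. After GC correction none of these KRAB genes passed the test, with log2 fold changes of 0.19 in *Zfp68*, 0.22 in *Zfp945* and 0.29 in *Zfp799* (adjusted p = 0.0993, 0.0971 and 0.0519). None of the 11 called members passed in the limma fits of log2 TPM. *Zfp68* passed only without control replicate 3 or KO replicate 3, and *Zfp945* and *Zfp799* in none of the leave-one-out fits (adjusted p up to 0.203).

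The other 4 rises were in genes without a KRAB box. *Zfp62* (ENSMUSG00000046311.13, chr11:49203292-49218816) had 48.2, 52.4 and 52.3 CPM in control and 59.3, 56.8 and 64.4 CPM in KO (log2 fold change 0.24 ± 0.061, SE, edgeR adjusted p = 0.0306). *Zfp827* (ENSMUSG00000071064.15, chr8:79028437-79193766), which recruits the NuRD complex to telomeres, had 45.5, 44.4 and 43.9 CPM in control and 47.7, 54.5 and 54.8 CPM in KO (0.23 ± 0.063, adjusted p = 0.0447). The first KO library of *Zfp827* lay nearest to the control group. *Zfp277* (ENSMUSG00000055917.15, chr12:40315046-40445902), a partner of Polycomb proteins, had 22.1, 22.9 and 22.2 CPM in control and 28.9, 26.8 and 25.3 CPM in KO (0.27 ± 0.075, adjusted p = 0.0497). *Zfp395* (ENSMUSG00000034522.10, chr14:65358389-65398930), which binds the promoter of the Huntington disease gene, had 54.1, 55.8 and 59.6 CPM in control and 65.5, 64.2 and 63.7 CPM in KO (0.19 ± 0.053, adjusted p = 0.0480). None of these groups overlapped. With the replicate number as a block, *Zfp277* (adjusted p = 0.0534, range over its alternatives 0.0318 to 0.181) and *Zfp395* (0.0507, range 0.0137 to 0.956) no longer passed. On log2 TPM the log2 fold change of *Zfp395* was 0.03. *Zfp62* and *Zfp277* were also lost with GC correction, *Zfp277* with exactTest, and *Zfp827*, which overlaps another gene on its strand, with library size alone. In leave-one-out fits *Zfp62* passed only without control replicate 3 or KO replicate 2, *Zfp827* without KO replicate 1, *Zfp395* without control replicate 3 and *Zfp277* in none.

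The member that fell acts on RNA. *Zfp346* (ENSMUSG00000021481.11, chr13:55105311-55134825) encodes JAZ, a nuclear protein that binds double-stranded RNA. It stood at 52.7, 58.2 and 54.8 CPM in control and 48.0, 41.3 and 43.7 CPM in KO. All KO libraries lay below the control group, and the log2 fold change was -0.32 ± 0.066 (SE, edgeR adjusted p = 0.0103). It did not pass without control replicate 2, KO replicate 2 or KO replicate 3 (adjusted p up to 0.0767). *Zfp346* lies after *Phf2* on chromosome 13. On that side 23 of 255 genes of at least 5 CPM were called lower, *Zfp346* among them, and 1 higher. The part of this difference in the value of *Zfp346* was not tested. Annotated genes lie antisense to *Zfp346*, as they do to 82 members in all, *Zfp799* among them. The kit was directional, and whether the counting used strand is not given in the sources used here.

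**Figure D3:**
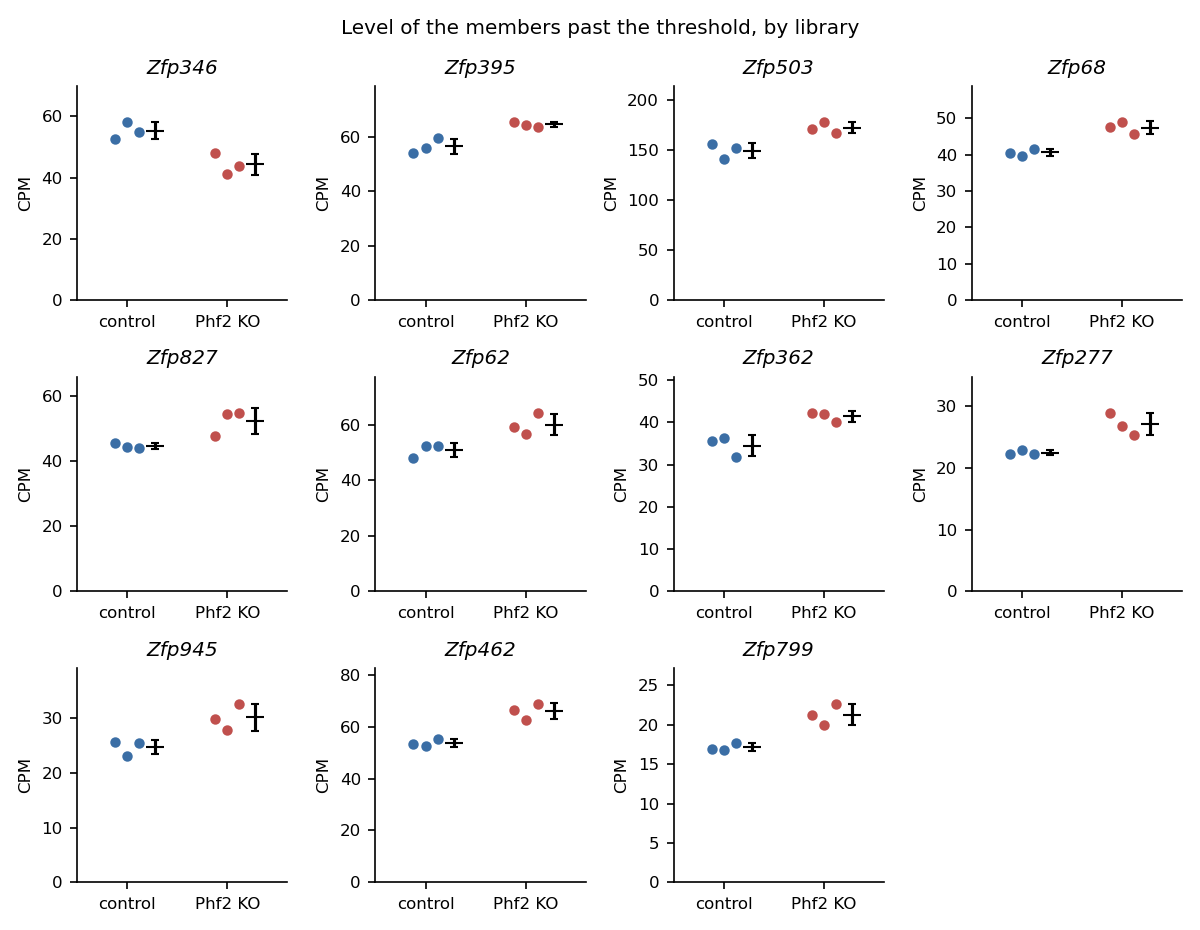
CPM of each of the 11 members past the threshold in the 3 control and 3 *Phf2* KO libraries, with the group means and SD, on axes that start at 0. In every panel the groups do not overlap, and *Zfp346* is the member that is lower in KO.

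Among the 7 listed genes for RNA and translation, *Zfp346* alone passed. *Zfp36* encodes tristetraprolin, which speeds the decay of AU-rich mRNAs. It stood at 30.1, 29.4 and 42.2 CPM in control and 43.5, 48.1 and 43.0 CPM in KO. The third control library lay close to the KO group, and the log2 fold change of 0.40 ± 0.145 did not pass (SE, edgeR adjusted p = 0.192). It passed with exactTest, with DESeq2 and without control replicate 3, with adjusted p from 0.000438 to 0.398 over its alternatives. *Zfp326*, which couples transcript elongation to splicing, had 36.9, 36.3 and 41.2 CPM in control and 42.2, 45.9 and 46.8 CPM in KO (log2 fold change 0.24, adjusted p = 0.0529), and it passed with the replicate number as a block. *Zfp106* was lower in each KO library, at 430, 440 and 457 CPM against 474, 507 and 475 CPM in control, with a log2 fold change of -0.13 (adjusted p = 0.0847). *Zfp598*, the ubiquitin ligase of collided ribosomes, had -0.08 (0.375), *Zfp207* 0.05 (0.568) and *Zfp622* 0.01 (0.936).

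None of the 9 tested KRAB genes with known targets passed, and 5 had a change above 0. *Zfp568*, a repressor of a placental *Igf2* transcript, stood at 98.1, 99.1 and 81.2 CPM in control and 77.0, 77.6 and 84.6 CPM in KO (log2 fold change -0.22, edgeR adjusted p = 0.118), and its groups overlapped. The imprint regulators *Zfp57* and *Zfp445* had -0.08 (0.680) and 0.11 (0.375). *Zfp809*, which silences retroviruses through their primer binding site, had -0.12 (0.759), and *Zfp932*, which represses endogenous retroviruses, 0.18 (0.334). *Zfp961* had the lowest fitted change of all members at -0.43, but the first KO library held 0.780 CPM and the others 5.92 and 6.78 CPM, against 5.09, 7.18 and 5.91 CPM in control (adjusted p = 0.855). *Zfp30* had 0.19 (0.540) and *Zfp667* 0.23 (0.588). *Zfp69*, *Zfp263* and *Zfp708* were below the bound. The counts and TPM of *Zfp708* disagree, with a mean of 0.0281 CPM but 2.26 TPM.

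The largest fitted rises among all members were those of *Zfp287* and *Zfp420*, which did not pass. *Zfp287* had 5.82, 6.44 and 4.57 CPM in control and 8.13, 6.36 and 8.69 CPM in KO, with overlapping groups (log2 fold change 0.46, edgeR adjusted p = 0.129). *Zfp420* had 6.72, 7.50 and 5.75 CPM in control and 9.20, 9.31 and 8.85 CPM in KO, without overlap (0.45, adjusted p = 0.0595). The calls were spread unevenly over the levels. None of 62 members between 5 and 10 CPM passed, 1 of 82 between 10 and 20 CPM, 6 of 68 between 20 and 50 CPM and 4 of 33 at 50 CPM or more. The shares of all genes called in these ranges were 5.21%, 5.41%, 7.12% and 13.9%. The median log2 fold change of members was 0.12, 0.08, 0.06 and 0.09 in the same order.

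Members with a KRAB box had a median log2 fold change of 0.12, and 94 of 119 (79.0%) were above 0. Without a KRAB box the median was 0.04, and 78 of 124 (62.9%) were above 0. Every KO library lay above every control library in 27 of the KRAB members (22.7%) and 30 of the others (24.2%), against 16.8% of all genes of at least 5 CPM. Every KO library lay below in 1 (0.840%) and 11 (8.87%), against 14.1%. By number of fingers, the median was 0.04 in 41 members with 0 to 4, 0.03 in 69 with 5 to 9, 0.12 in 82 with 10 to 14 and 0.08 in 51 with 15 or more. In the same order 4, 3, 0 and 4 passed the test (9.76%, 4.35%, 0% and 7.84%), against 9.39% of all genes of at least 5 CPM. The shares above 0 were 63.4%, 59.4%, 81.7% and 74.5%, against 51.9% of all genes of at least 5 CPM. The difference between KRAB members and others was not tested.

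**Figure D4:**
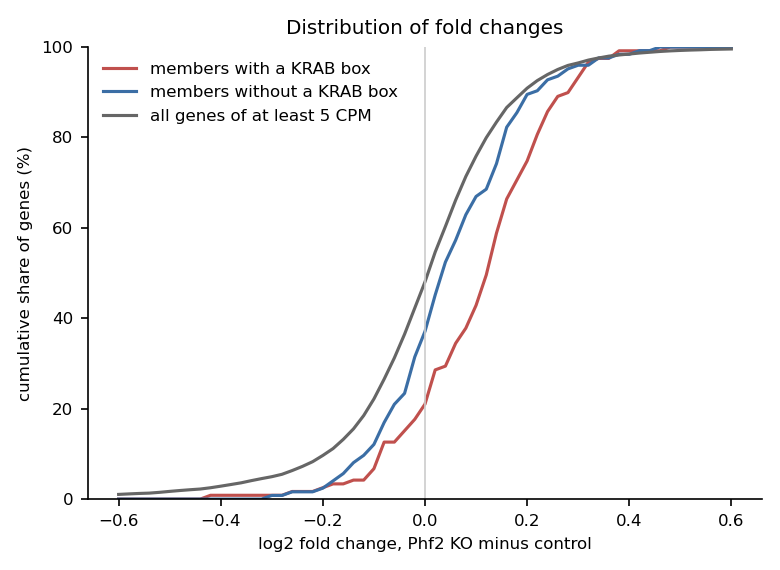
Cumulative share of genes (%) against log2 fold change (*Phf2* KO minus control) for members with a KRAB box, members without it and all genes of at least 5 CPM. The KRAB curve lies to the right of the others around its median of 0.12, while all genes cross their median at 0.006.

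GC content differed between these sets and moved with the fold change. The median GC content of the transcripts was 42.0% in KRAB members and 50.7% in the others, against 49.3% over all genes tested. Among all genes of at least 5 CPM, members included, the median log2 fold change was 0.06 below 40% GC, 0.05 from 40 to 45%, 0.01 from 45 to 50% and -0.03 at 50% or more. In the same bins the members had 0.12, 0.13, 0.07 and 0.01, each above the value for all genes. After the GC correction the medians for all genes were 0.02, 0.02, 0.02 and 0.03, and those of the members 0.07, 0.09, 0.07 and 0.07. The corrected median was 0.10 in KRAB members and 0.06 in the others, which is closer together than without the correction.

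Numbered Zfp genes are unevenly spread over the genome. On chromosome 7, 57 of 92 numbered Zfp genes were members, which is 23.3% of all members. On chromosome 17, 34 of 41 were members, and 30 of these had a KRAB box. On chromosome 4, 8 of 30 numbered Zfp genes reached 5 CPM. Using the deposited coordinates, 118 members fell into 21 clusters of at least 3 members whose starts followed each other within 500 kb. These held 81 of the 119 KRAB members. The median log2 fold change was 0.10 inside clusters (87 of 118 above 0, 3 called) and 0.04 outside (86 of 127 above 0, 7 called higher and 1 lower). The called shares were 2.54% inside and 6.30% outside, against 6.48% of all genes tested and 9.39% of those of at least 5 CPM.

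The largest cluster lay at chr17:21008903-23599487 with 19 members, all with a KRAB box. Of these, 16 had a change above 0, the median was 0.13, and *Zfp945* passed the test. In *Zfp160*, *Zfp229*, *Zfp820*, *Zfp942* and *Zfp13* the KO libraries also lay above the control libraries without passing. With *Zfp945* these made 6 of 19, against 16.8% of all genes of at least 5 CPM and 22.7% of all KRAB members. Of all KRAB members, 79.0% had a change above 0. *Zfp820* had 6.997, 7.59 and 7.85 CPM in control and 8.23, 10.3 and 10.3 CPM in KO (log2 fold change 0.36, edgeR adjusted p = 0.130). A further cluster of 9 members at chr17:32765496-33631779 had 8 above 0 and a median of 0.06, with *Zfp799* called and *Zfp81* at 0.32 (adjusted p = 0.0538). The 3 KRAB members *Zfp113*, *Zfp157* and *Zfp68* at chr5:138139702-138619761 had a median of 0.22.

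On chromosome 7 the clusters went in different directions. The 11 members at chr7:29768552-30169750 ranged from -0.22 in *Zfp568* to 0.45 in *Zfp420*, with 8 above 0. At chr7:27731389-28380253 all 5 members (*Zfp60*, *Zfp626*, *Zfp59*, *Zfp974* and *Zfp36*) were above 0 with a median of 0.21, whereas the 4 members at chr7:4915217-5053723 (*Zfp628*, *Zfp579*, *Zfp865* and *Zfp580*), none with a KRAB box, were all below 0 with a median of -0.09. None of these members passed the test. All 5 members at chr9:20345136-20605409 (*Zfp560*, *Zfp26*, *Zfp426*, *Zfp266* and *Zfp846*), each with a KRAB box, were above 0 with a median of 0.12. In the clusters not yet described the medians ran from -0.03 (*Zfp397*, *Zfp35* and *Zfp24*) to 0.21 (*Zfp715*, *Zfp658* and *Zfp719*). *Zfp59* shared 28.5% of its 100-base words with transcripts of other genes, and its value is uncertain. The same holds for 9 other members, among them *Zfp969*, identical over 100% of its words to *Zfp967*, *Zfp781* (92.4%) and *Zfp966* (78.7%), and none of the 10 was called.

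Chromosome 13 was the only chromosome on which the members had a median below 0. It was -0.04, with 3 of 15 members above 0. The cluster of 8 members at chr13:67121660-67755228 had 7 below 0 and a median of -0.08. In *Zfp759* the control libraries held 7.17, 5.68 and 5.27 CPM and the KO libraries 3.95, 5.81 and 5.97 CPM (log2 fold change -0.20, edgeR adjusted p = 0.624). In *Zfp87* they held 9.21, 8.88 and 11.8 CPM and 9.06, 8.03 and 9.81 CPM (-0.15, adjusted p = 0.620). All 8 members had overlapping groups and none passed. The 392 tested genes of at least 5 CPM on chromosome 13 had a median of -0.06, and 34.7% of them were above 0, the lowest share of the 20 chromosomes. *Phf2* lies on this chromosome (48801750 to 48871119). The median was -0.04 over the 136 genes before *Phf2* and -0.07 over the 255 genes after it, the side that holds the Zfp cluster and *Zfp346*. Before *Phf2*, 6 genes were called higher and 16 lower, and after it 1 higher and 23 lower. Of all genes of at least 5 CPM, 4.84% were called higher and 4.55% lower. The part of this chromosome-wide difference in the members' values was not tested. On chromosomes 7 and 17 the medians of all genes were -0.01 and -0.01, and those of the members 0.08 and 0.11.

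**Figure D5:**
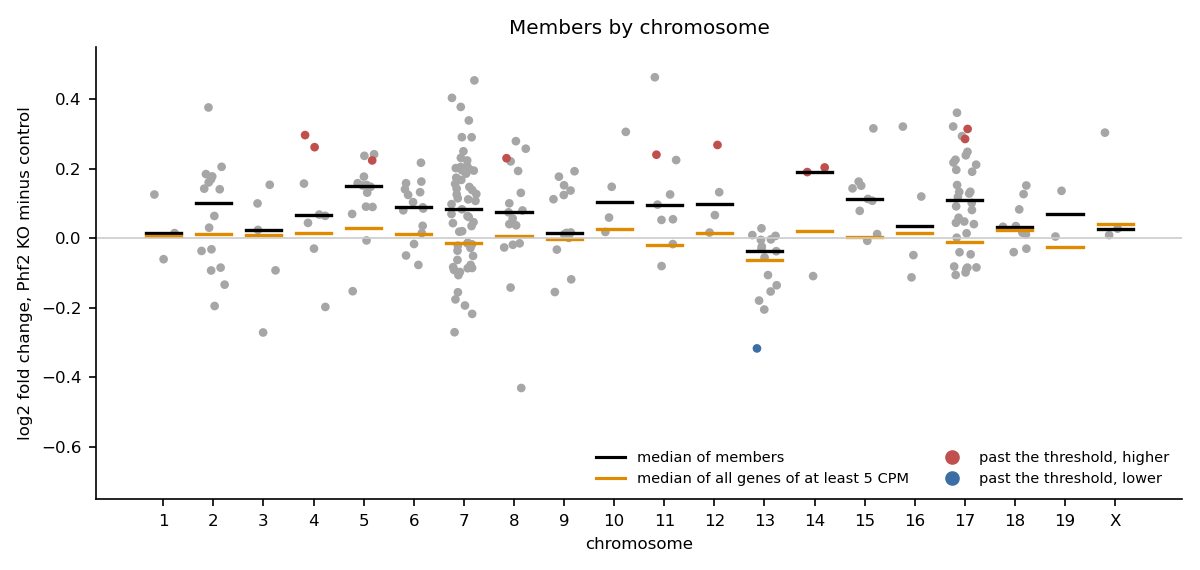
Log2 fold change (*Phf2* KO minus control) of each member by chromosome, with the median of the members and of all genes of at least 5 CPM on each. Chromosome 13 is the only one with a member median below 0 (-0.04), and its median over all genes (-0.06) is also below that of the other chromosomes.

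Genes for the proteins that KRAB boxes recruit were measured as well. Of 17 listed, 16 were tested, 1 rose (6.25%, background 3.22%) and none fell (background 3.26%). Calls in either direction made up 6.48% of all genes tested. The median log2 fold change of the 16 was 0.06, with 11 above 0. *Hdac1*, a histone deacetylase, had 70.0, 69.5 and 69.1 CPM in control and 77.1, 80.4 and 79.3 CPM in KO (0.18 ± 0.046, SE, edgeR adjusted p = 0.0288), and it did not pass in 5 of 6 leave-one-out fits (adjusted p up to 0.122). *Trim28* (KAP1) had 214, 218 and 216 CPM in control and 208, 222 and 209 CPM in KO, with overlapping groups (-0.02, adjusted p = 0.885). *Setdb1* had 62.5, 63.5 and 61.8 CPM in control and 64.6, 70.7 and 71.7 CPM in KO, without overlap but short of the threshold (0.14, adjusted p = 0.153).

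Of the 131 numbered Zfp genes below 5 CPM, 20 were at 0 in all libraries and 90 were tested. A place below this bound on counts does not always mean a low TPM. *Zfp935*, which was not tested, had a mean of 0.00247 CPM but 10.6 TPM. The tested genes had a median log2 fold change of 0.13, with 58 above 0 and a median standard error of 0.25. Of them 1 was called (1.11%, against 6.48% of all genes tested). *Zfp973* had 2.52, 2.27 and 2.58 CPM in control and 3.12, 6.80 and 8.67 CPM in KO (1.34 ± 0.329, SE, edgeR adjusted p = 0.0489). It shared 74.9% of its 100-base words with other genes, *Zfp965* foremost, so its value is uncertain. The first KO library lay close to the control libraries, and the spread within the KO group exceeded the distance between that library and control.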

How the data were processed

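Poly(A) RNA of 3 control and 3 *Phf2* KO wells was sequenced with a directional kit. The submitters' processing notes name HISAT2 and mm10. The authors' deposited gene matrix holds StringTie estimated counts, which were rounded, and their tables per library hold TPM and coverage. The deposited TPM signal sums to nearly double its nominal total because transcripts are listed under reference genes and assembled loci, so only reference rows were used. The deposited coverage was used to check the unit of the counts. The median covered length per count was 75.0 bases, so a count is not a whole read pair, and counts divided by 4 were tried.

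Counts were tested in edgeR 4.0.16 (R 4.3.3) with TMM scaling, filterByExpr at a minimum count of 10 and a robust quasi-likelihood fit on group alone, and adjusted p-values are over 17310 genes. A gene was called at an adjusted p under 0.05. Fold changes use a prior count of 0.125. The fit was tested on simulated data. Alternatives were exactTest, DESeq2 1.42.0, other scaling, no filter, limma 3.58.1 on log2 TPM with pseudocounts of 1 and 0.1, each library left out, other bounds, and, added after seeing the data, a loess correction for GC content. The common biological coefficient of variation was 0.135. A test on 3 against 3 single values by permutation cannot go below p = 0.1, and none was made.

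Deviations of same-numbered control and KO libraries from their group means correlated at 0.25, 0.24 and 0.16 over 10923 genes, and different numbers at -0.013 or less. Deviations within a group cancel, so the values for different numbers add no separate support. The numbers may pair the samples, but neither the labels nor the paper state a pairing. A fit with the replicate block was therefore made beside the main one, which follows the study in having none.

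Fingers were counted in translated coding sequences of GENCODE M21, in place of the RefSeq proteins planned, as Cys, 2 to 4 residues, Cys, 12 residues, His, 3 to 5 residues, His. A KRAB box needed 7 of 16 positions of the A box, a bound set on the scores. Transcripts sharing over 20% of their 100-base words with other genes were called uncertain. Named genes were *Phf2*, every called member, the 5 of highest TPM, members of 3 role lists, those at the bound, cluster members, the 3 uncalled members of largest change, called KRAB cofactors with *Trim28* and *Setdb1*, and markers. *Zfp973*, *Zfp740*, *Zfp935* and genes named for missing values, shared sequence or finger counts were chosen after their values were seen. The members and lists were chosen with earlier results of these data known.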

Additional observations from a re-analysis of the deposited data

How the results depend on the processing

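The member median log2 fold change stayed between 0.07 and 0.09 over 17 alternatives, with 163 to 183 of 245 members above 0, and that of KRAB members between 0.08 and 0.14. Calls moved more. DESeq2 called 18 members higher and 3 lower and 2 KRAB cofactors, and counts divided by 4 also called 2 cofactors (*Hdac1* and *Cbx3*). limma on log2 TPM, with a pseudocount of 1 or 0.1, called 0 members in either direction and 0 cofactors, while 29 and 28 members had an unadjusted p under 0.05. That test called 158 of all genes with the pseudocount of 1. The share of all genes called moved as well. It was 6.48% in the main fit, 9.91% with DESeq2, 9.08% with counts divided by 4, 7.60% with the replicate block and 6.84% with GC correction. Leaving out each library gave 1 to 8 members higher, 0 to 2 lower and 0 to 1 cofactors. The lowest count, 1 higher and 0 lower, came without control replicate 2, and the fits without control replicate 1, KO replicate 2 or KO replicate 3 gave 2 higher each and that without KO replicate 1 gave 5. Over all genes the main fit called 1122. The leave-one-out fits called from 468, without control replicate 2, to 1039, without control replicate 3. With the replicate block 9 members were higher and 1 lower, 9 of them shared with the fit without it, and calls for *Zfp277* and *Zfp395* were lost and *Zfp326* gained. With GC correction 12 were higher and 1 lower, 6 shared. Both changes together, replicate block and GC correction, gave 10 higher and 1 lower. Of 187 values of single called genes under the alternatives, 99 kept direction and threshold, 88 kept direction only and 0 reversed. The cause of these differences was not tested. Between 5 and 10 CPM the median standard error of a member was 0.14 on the log2 scale, against 0.05 at 50 CPM or more.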

Other observations

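*Zfp740*, which is on no list, came nearest to the threshold among the members that did not pass it. It stood at 120, 114 and 121 CPM in control and 131, 132 and 131 CPM in KO without overlap (log2 fold change 0.15, edgeR adjusted p = 0.0508, with 0.0141 to 0.435 over the alternatives).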
